A study of Mus musculus with 22 samples.

Results

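The genes described here make up the contractile machinery of smooth muscle and activated fibroblasts, or mark the pericytes and other mural cells that wrap small vessels. The 10 genes were named by symbol and matched to their Ensembl identifiers, and they are 10 of the 41388 genes in the deposited tables. Of these, 5 encode the contractile apparatus (Acta2, Tagln, Myh11, Cnn1 and Myl9), 1 encodes an intermediate filament (Des), and 4 are taken as mural genes (Rgs5, Cspg4, Mcam and Kcnj8). All 10 passed the filter on low counts.

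RNA was sequenced from stromal cells of tumors grown in C57BL/6 mice, given in the labels as 56 days of postnatal age. Every mouse carried Osx-cre, a doxycycline-repressible Cre under the Sp7 (osterix) promoter, with the Ai9 reporter, so that cells with a history of Osx-cre activity express TdTomato (TdT). Some mice also carried a conditional deletion of Cdh2, the gene of N-cadherin, and their libraries are labelled Cdh2-cKO, while the others are labelled wild type. Stromal cells were parted from GFP+ tumor cells, per the paper, and sorted by TdT and CD45, the pan-leukocyte antigen, into TdT single positive (TdT+;CD45-), double negative (TdT-;CD45-), double positive (TdT+;CD45+) and CD45 single positive (TdT-;CD45+) populations. The 22 libraries are shared evenly between the labels, with TdT single positive cells in 2 libraries and the remaining populations in 3 apiece for each label, so that 10 libraries are CD45- and 12 are CD45+. The labels name an orthotopic MMTV-BO1 tumor, whereas the design text gives subcutaneous tumors. Per the paper, the reporter mice in its later studies were fed doxycycline until weaning, to suppress Cre up to that age. The paper does not describe Cdh2-cKO mice. The TdT label records that Cre was active at some time in a cell or its ancestors, and does not show that Sp7 is transcribed at the time of sorting. Between 16594228 and 26784003 reads were counted on genes per library, with a median of 18977040.

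Smooth muscle alpha-actin (Acta2), transgelin (Tagln), calponin (Cnn1), smooth muscle myosin heavy chain (Myh11) and the regulatory light chain Myl9 form or regulate the actomyosin filaments that give mural cells and myofibroblasts their tension. Acta2 is switched on in fibroblasts that become myofibroblasts in wounds and tumors, and it is also made by smooth muscle and by many pericytes, so that Acta2 alone does not tell these cells apart. Rgs5, a regulator of G protein signaling, and Kcnj8, the pore of a potassium channel gated by ATP, are used as pericyte markers, whereas Mcam (CD146) is shared with endothelium and Cspg4 (NG2) with several other cell types.

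The sort was checked with Ptprc, which encodes CD45. In CPM after TMM scaling (normalized CPM), Ptprc lay between 472 and 1821 in the 12 CD45+ libraries and between 2.45 and 337 in the 10 CD45- libraries. The highest CD45- values were 337 in wild type double negative replicate 3, 164 in Cdh2-cKO TdT single positive replicate 1, 89.9 in Cdh2-cKO TdT single positive replicate 2 and 81.2 in wild type TdT single positive replicate 2. Leukocyte transcripts were therefore present in several CD45- libraries, most in wild type double negative replicate 3. Sp7 itself was at 0 counts in 19 of the 22 libraries and at 1 count in the others, where 3 counts, the smallest signal taken as present, correspond to between 0.103 and 0.201 normalized CPM.

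Cdh2, the targeted gene, did not follow the genotype labels. Its normalized CPM were 9.14 and 5.19 in the TdT single positive libraries labelled wild type, and 17.2 and 13.1 in those labelled Cdh2-cKO. In double negative cells the values were 6.02, 7.47 and 4.51 under the wild type label, and 12.5, 18.4 and 14.2 under the Cdh2-cKO label. Cdh2 was thus higher in every CD45- library labelled Cdh2-cKO than in every one labelled wild type, although neither comparison passed the test (log2 fold change 1.08 ± 0.84 SE, adjusted p = 0.668 in TdT single positive cells and 1.32 ± 0.69 SE, adjusted p = 0.625 in double negative cells, edgeR quasi-likelihood test). The counts cover the whole gene, so a transcript that lacks only the deleted part would still be counted, and the labels are not checked by this value. Every direction by genotype given here is a direction between libraries that carry these labels.

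The sequences upstream of the start sites were searched for a box bound by a known regulator of contractile genes. The search is therefore not independent of the choice of genes, although sequence was not used in that choice. The CArG box, which consists of 2 C, 6 A or T and 2 G, is bound by serum response factor (SRF), the factor through which many contractile genes are switched on. RefSeq promoters (build GRCm38.p6) were matched for 8 of the 10 genes (not for Tagln and Myh11) and searched over the 250 bases before the start. The box reads the same on both strands. It was found in 1 of the 8 genes, Myl9, and in 1.47% of all 32851 promoters, or 1.62% of the 27025 genes they belong to. A box with 1 C or G among its 6 inner bases was found in 2 of the 8, Acta2 and Myl9, and in 7.24% of all promoters; this looser form was added after the first search. Windows of 50 bases around the boxes are printed with the box in capitals, Acta2 from chr19:34255428-34255477 and chr19:34255378-34255427 on the minus strand, and Myl9 from chr2:156775283-156775332 and chr2:156775345-156775394 on the plus strand.
Acta2, first window: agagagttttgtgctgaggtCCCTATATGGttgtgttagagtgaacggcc
Acta2, second window: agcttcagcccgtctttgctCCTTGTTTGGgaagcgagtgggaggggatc
Myl9, first window: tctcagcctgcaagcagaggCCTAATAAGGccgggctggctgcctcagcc
Myl9, second window: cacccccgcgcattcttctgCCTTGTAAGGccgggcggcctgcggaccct
The first Myl9 window holds the strict box and the other 3 hold the looser form. No box of either kind was found in this stretch of Cnn1, Des, Rgs5, Cspg4, Mcam or Kcnj8, which says only that these letters are not in this window.

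Acta2 (chr19:34241090-34255336, GRCm38) was the most abundant of the 10 genes in the CD45- cells. Its normalized CPM were 1833 and 1325 in the wild type TdT single positive libraries and 1130, 753 and 149 in the wild type double negative libraries. Under the Cdh2-cKO label they were 615 and 1474 in TdT single positive and 436, 664 and 916 in double negative libraries. The lowest CD45- library, wild type double negative replicate 3, is the library with the most Ptprc. In the 12 CD45+ libraries Acta2 lay between 4.87 and 13.95, with a median of 6.46, below every CD45- library. How many of all genes are divided in this way was not counted. Of all genes tested, 25.7% were called higher in CD45- cells under the wild type label and 27.0% under the Cdh2-cKO label. Reads from stretches that Acta2 shares with the other actin genes are lost or uncertain, since uniquely aligned reads were counted.

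The other contractile genes had the same division. Tagln, an actin-binding protein of smooth muscle, lay between 68.8 and 948 normalized CPM in the CD45- libraries and between 1.85 and 5.70 in the CD45+ libraries. Myl9 lay between 44.8 and 538 against 0.951 and 2.95. Cnn1, which dampens myosin activity, lay between 3.03 and 67.9 against 0.0549 and 0.776. Myh11, the myosin of differentiated smooth muscle, was the least abundant of the 5, at 2.42 to 36.3 normalized CPM in CD45- libraries and at no more than 5 counts in any CD45+ library. Des, the muscle intermediate filament also made by pericytes, lay between 2.37 and 41.3 in CD45- libraries. Its CD45+ values reached 2.56 in wild type double positive replicate 1 and were at most 0.512 in the other 11 libraries, so that for Des the ranges overlapped.

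**Figure D1:**
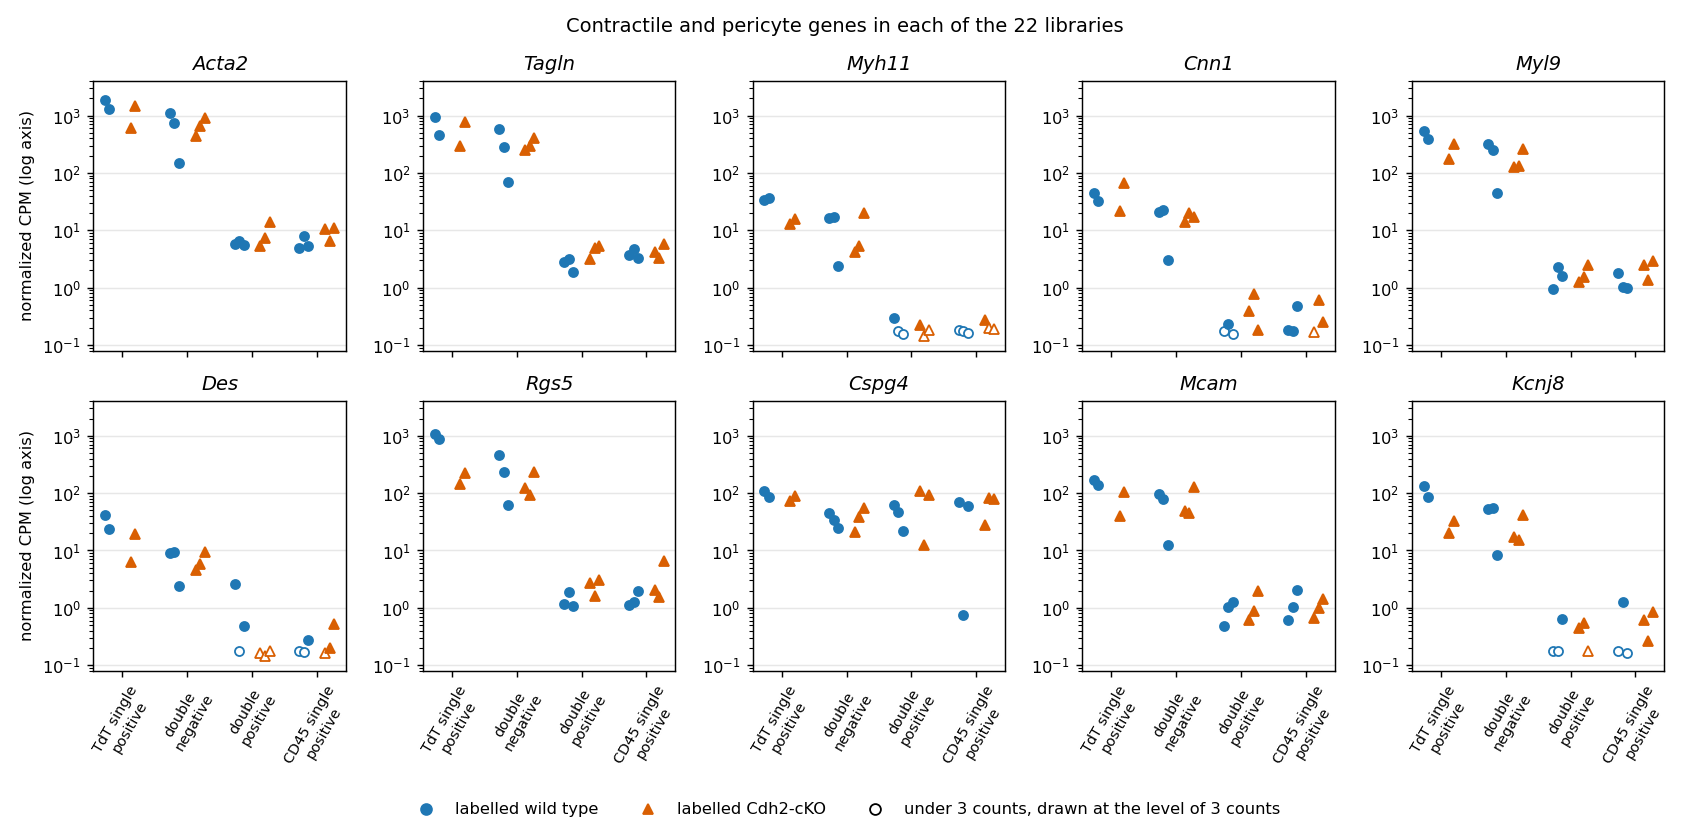
Normalized CPM of the 10 genes in each of the 22 libraries on a log axis, by sorted population, with circles for libraries labelled wild type and triangles for those labelled Cdh2-cKO; open symbols stand for fewer than 3 counts and are drawn at the level of 3 counts. Cspg4 overlaps between CD45- and CD45+ libraries, with wild type CD45 single positive replicate 2 (0.745) and Cdh2-cKO double positive replicate 2 (12.5) below all CD45- libraries. Acta2 lies between 149 and 1833 in CD45- and at or below 13.95 in CD45+ libraries.

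Among the mural genes, Rgs5 (chr1:169655501-169695813) was the most abundant in the CD45- cells. It stood at 1084 and 894 normalized CPM in the wild type TdT single positive libraries and at 464, 233 and 60.9 in the wild type double negative libraries. In libraries labelled Cdh2-cKO it stood at 143 and 226 in TdT single positive cells and at 121, 92.3 and 237 in double negative cells. In the CD45+ libraries it lay between 1.06 and 6.53. The 2 wild type TdT single positive libraries were the highest of all 22, and the other 8 CD45- libraries ranged from 60.9 to 464.

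Kcnj8 (chr6:142564939-142571356) was less abundant, and its 2 highest libraries were again those of wild type TdT single positive cells. It stood at 135 and 84.8 in wild type TdT single positive, 53.8, 54.0 and 8.48 in wild type double negative, 20.2 and 33.3 in Cdh2-cKO TdT single positive and 17.4, 15.1 and 42.4 in Cdh2-cKO double negative libraries. Its CD45+ values lay between 0.0539 and 1.26 normalized CPM. Mcam, a cell adhesion molecule of mural and endothelial cells, lay between 12.5 and 168 in CD45- and between 0.476 and 2.05 in CD45+ libraries.

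Cspg4 (chr9:56865104-56899870), the proteoglycan NG2, was the exception among the 10. Its normalized CPM in the CD45- libraries were 111 and 84.3 in wild type TdT single positive, 45.1, 33.4 and 24.7 in wild type double negative, 71.9 and 90.0 in Cdh2-cKO TdT single positive and 21.2, 38.8 and 56.1 in Cdh2-cKO double negative libraries. In CD45+ cells they were 61.3, 47.4 and 21.5 in wild type double positive, 69.4, 0.745 and 58.7 in wild type CD45 single positive, 111, 12.5 and 91.4 in Cdh2-cKO double positive and 27.7, 82.7 and 78.0 in Cdh2-cKO CD45 single positive libraries. The CD45+ and CD45- values thus overlapped, with the highest at 110.9 and 111.1 and the lowest at 0.745 and 21.2. The low library, wild type CD45 single positive replicate 2, held 13 Cspg4 counts against 258 to 2009 in the other 11 CD45+ libraries. That library also had the most Ptprc (1821 normalized CPM) and the least Lyz2, a lysozyme of macrophages and neutrophils (3377 against 14380 or more in the other CD45+ libraries). The B cell gene Cd79a was at 865 there against at most 0.950 in the other 21 libraries, and the T cell gene Cd3e at 514 against at most 89.6. The part of cell composition in the Cspg4 level was not tested. No exon of another gene in the tables overlapped those of Cspg4.

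Levels of different genes were compared per kilobase of exon (RPKM after TMM scaling). Over the 10 CD45- libraries the mean was 522 ± 288 (SD) for Acta2, 274 ± 166 for Tagln, 220 ± 126 for Myl9, 78.1 ± 78.0 for Rgs5 and 25.7 ± 14.9 for Mcam. It was 21.2 ± 17.7 for Kcnj8, 11.2 ± 7.67 for Cnn1, 7.16 ± 3.78 for Cspg4, 3.49 ± 3.16 for Des and 2.48 ± 1.75 for Myh11. Within a library this order was mostly kept. Tagln was below Acta2, Rgs5 below Myl9, Mcam below Rgs5 and Des below Cspg4 in 10 of 10 libraries, and Cspg4 was below Cnn1 in 9 of 10. The neighbors that changed places were Myl9 below Tagln (8 of 10), Kcnj8 below Mcam (7 of 10), Cnn1 below Kcnj8 (8 of 10) and Myh11 below Des (6 of 10). In the 12 CD45+ libraries Cspg4 had a mean of 6.86 ± 4.22 RPKM and the other 9 genes had means of 4.22 ± 1.58 (Acta2) or less.

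The comparison of CD45- with CD45+ cells asks whether the genes belong to the non-hematopoietic stroma. In the libraries labelled wild type, 9 of the 10 genes were higher in CD45- cells at an adjusted p of at most 0.05, where 25.7% of the 15043 genes tested were higher. In the libraries labelled Cdh2-cKO, 9 of 10 were again higher, where 27.0% of all genes tested were. In both cases the gene that did not pass was Cspg4 (log2 fold change 0.43 ± 0.68 SE, adjusted p = 0.624 under the wild type label and -0.26 ± 0.68, adjusted p = 0.772 under the Cdh2-cKO label). The median log2 fold change over the 10 genes was 7.32 and 6.13, against -0.09 and -0.02 over all genes tested. Without wild type double negative replicate 3 the count was 9 of 10 under both labels. In bulk libraries fewer cells of a type and less RNA per cell cannot be told apart.

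The log2 fold changes of the 9 genes called ran from 5.55 to 8.45 in wild type and from 5.79 to 6.68 in Cdh2-cKO libraries. The log2 fold change of Acta2 was 7.44 ± 0.50 (adjusted p = 8.28e-09) in wild type and 6.53 ± 0.48 (adjusted p = 3.97e-08) in Cdh2-cKO libraries. That of Rgs5 was 8.45 ± 0.58 (adjusted p = 8.83e-09) and 5.85 ± 0.51 (adjusted p = 1.81e-07). The smallest among the 9 genes called in the wild type libraries was that of Des, at 5.55 ± 0.80 (adjusted p = 2.75e-05), and with 1 library left out it ranged from 5.28 to 7.54.

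**Figure D2:**
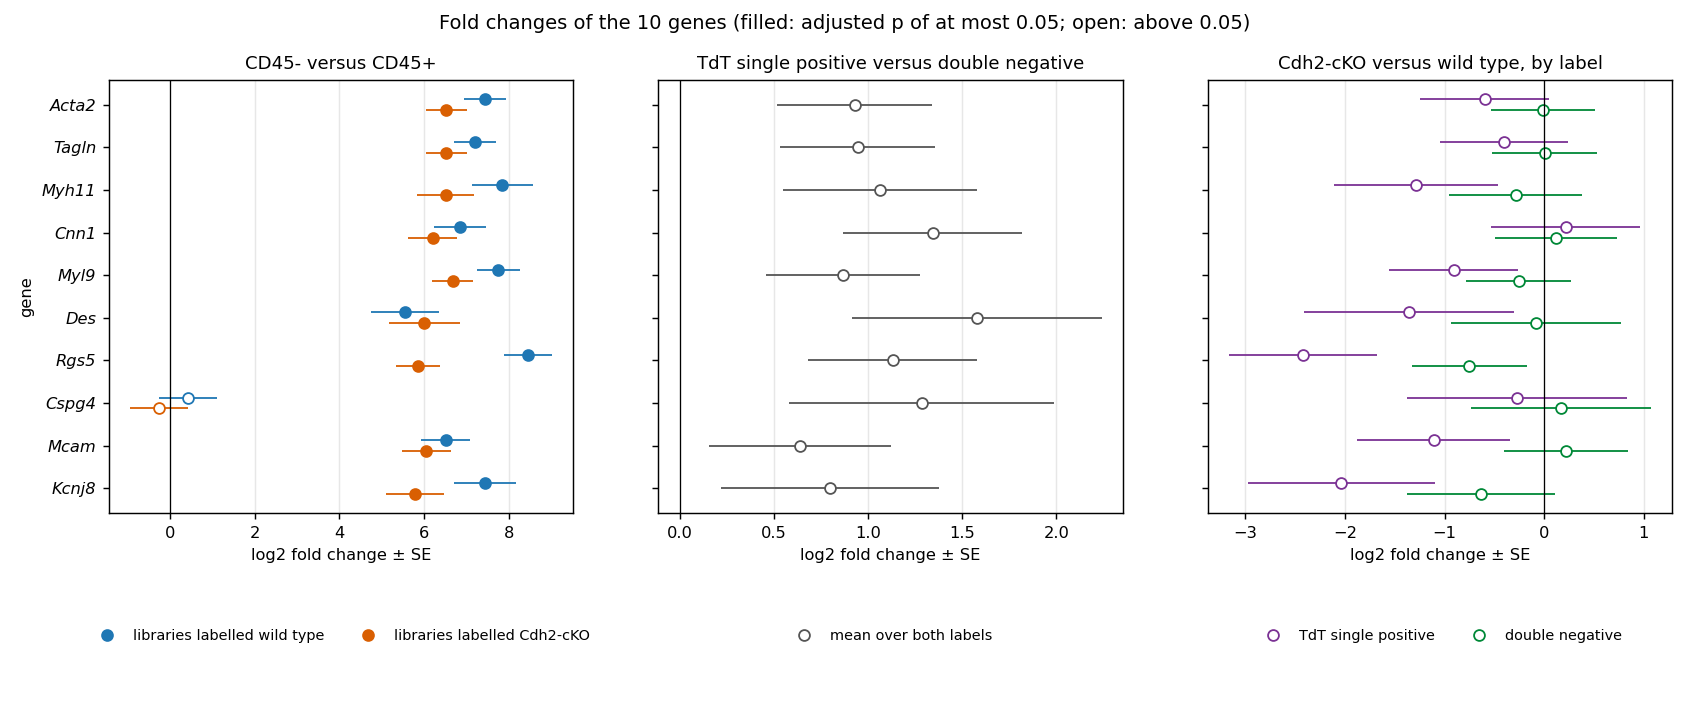
Log2 fold changes with their SE for the 10 genes in 3 kinds of comparison, CD45- against CD45+ cells (left), TdT single positive against double negative cells (middle) and libraries labelled Cdh2-cKO against those labelled wild type (right). Filled points passed an adjusted p of 0.05 and open points did not; Cspg4 is the 1 gene that did not pass on the left, and no point is filled in the other comparisons.

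Other genes of the same programs followed the same division. Of 15 further smooth muscle and contractile genes, 13 were tested, and 12 rose in CD45- cells of the wild type libraries and 11 in those labelled Cdh2-cKO. Their most abundant genes were the tropomyosin Tpm1 (log2 fold change 4.48 in wild type), the caldesmon Cald1 (5.12), Tpm2 (6.22) and Actg2 (6.81), the enteric smooth muscle actin. Of 12 further mural genes, 11 rose and 1 fell in wild type, and 10 rose and 1 fell in Cdh2-cKO libraries. The gene that fell in both was Anpep (CD13), at -1.24 and -2.27 on the log2 scale. Pdgfrb, the receptor through which endothelium recruits pericytes, rose by 7.26 and 6.10.

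Genes of myofibroblasts and activated fibroblasts rose in CD45- cells too. Of 12 listed, 11 were tested and all 11 rose under both labels, with a median log2 fold change of 7.38 and 6.31, and Pdpn was at 0 counts in all 22 libraries. Postn, a matrix protein of activated fibroblasts, rose by 8.14 in wild type libraries, and Tnc, Thbs2 and Col12a1 by 6.61, 7.38 and 8.10. All 10 fibroblast genes rose under both labels. The 11 regulators of the contractile genes (SRF, its cofactors and TGF-beta signaling) gave a mixed picture. Myocd, the muscle-restricted cofactor of SRF, did not pass the filter and was at most 1.43 normalized CPM in any library. Of 10 tested, 7 rose and 1 fell in wild type libraries, and 5 rose and 2 fell in Cdh2-cKO libraries. Tgfb1i1 (Hic-5), a focal adhesion protein induced by TGF-beta, rose by 7.76 and 7.08, while Srf itself rose by 0.84 in wild type and had 0.40 in Cdh2-cKO libraries (adjusted p = 0.0685).

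The other lists hold markers of further cell types. Over all genes tested, 25.7% rose and 25.3% fell in CD45- cells of the wild type libraries, and 27.0% rose and 23.6% fell in those labelled Cdh2-cKO. Of 12 endothelial genes 11 rose under each label. Of 13 leukocyte genes tested, 13 fell in wild type and 12 in Cdh2-cKO libraries. Of 7 epithelial tumor cell genes tested, 4 rose and 2 fell in wild type, and 5 rose and 2 fell in Cdh2-cKO libraries. Of 9 skeletal muscle fiber genes tested, 1 rose and 2 fell in wild type, and 6 rose and 1 fell in Cdh2-cKO libraries. The platelet list had 1 gene up and 4 down of 5 in wild type, and 1 up and 3 down in Cdh2-cKO libraries. Of the remaining lists, 1 of 6 myogenic progenitor genes, 2 of 6 Schwann cell genes and 3 of 5 myoepithelial genes were tested, and 1, 2 and 0 of these rose in wild type and 1, 1 and 1 in Cdh2-cKO libraries.

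Summed levels of these lists differed widely between CD45- libraries. The 14 leukocyte genes, led by Lyz2, summed to 344 and 6842 normalized CPM in wild type TdT single positive, 394, 3919 and 21890 in wild type double negative, 14720 and 6488 in Cdh2-cKO TdT single positive and 848, 957 and 836 in Cdh2-cKO double negative libraries. Over the 10 CD45- libraries the log2 leukocyte sum had r = -0.47 with Acta2 (rho = -0.47), and r = -0.12 without wild type double negative replicate 3, the library with the most leukocyte transcripts and the least Acta2. The 8 epithelial genes, led by Krt18, summed to 41.6 and 575 in wild type TdT single positive, 510, 1406 and 596 in wild type double negative, 939 and 934 in Cdh2-cKO TdT single positive and 1231, 1997 and 1068 in Cdh2-cKO double negative libraries. With Rgs5 the leukocyte sum had r = -0.40 (rho = -0.54), and r = -0.19 without wild type double negative replicate 3. The epithelial sum had r = -0.67 with Rgs5 (rho = -0.60), and r = -0.80 without that library. With Acta2 the epithelial sum had r = -0.39 (rho = -0.54), and r = -0.70 without that library. The part of leukocyte and epithelial transcripts in the results was not tested. Skeletal muscle genes, led by Acta1, were highest in Cdh2-cKO double negative replicate 2 (194) and Cdh2-cKO TdT single positive replicate 2 (159). Y-linked Ddx3y was above 1 CPM in 8 of the 22 libraries, under both labels and in all 4 populations, so that libraries differ in Y-linked transcripts within groups.

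**Figure D3:**
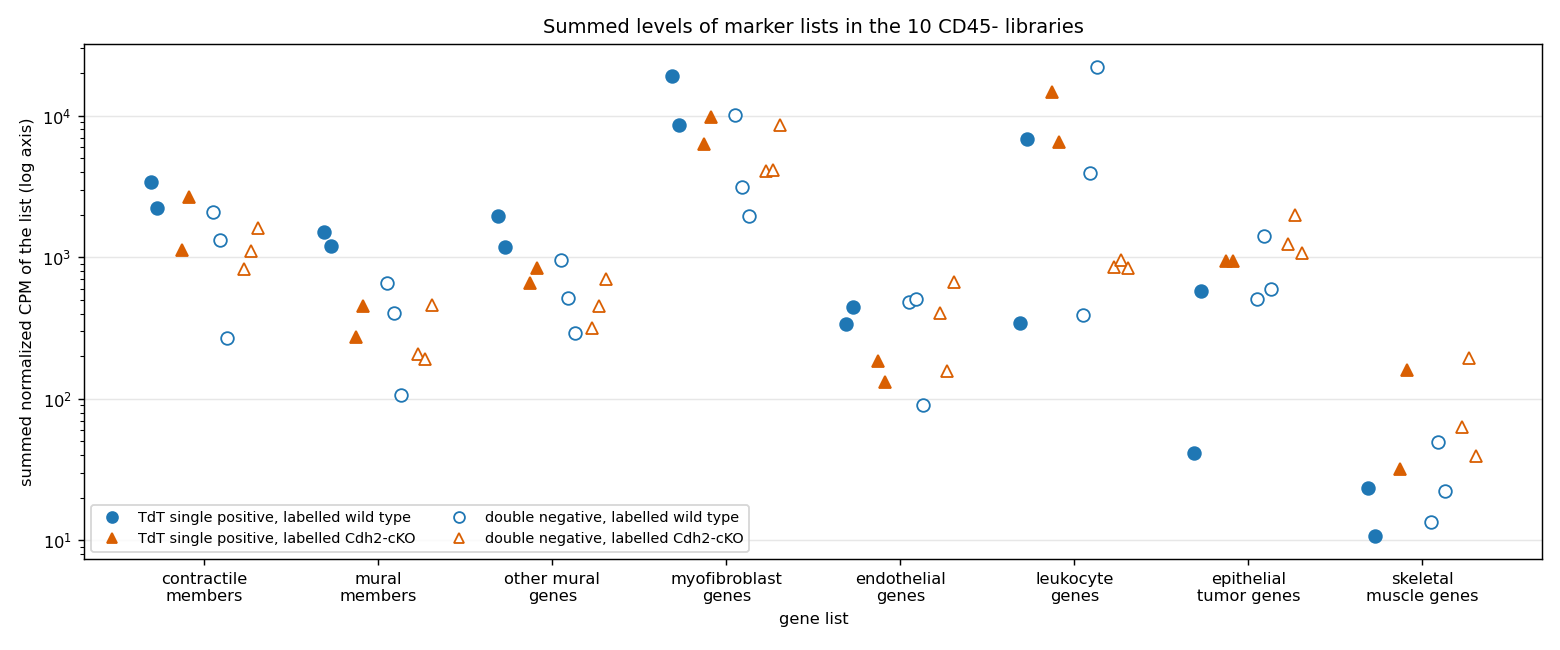
Summed normalized CPM of 8 gene lists in the 10 CD45- libraries on a log axis, with circles for libraries labelled wild type, triangles for Cdh2-cKO, filled symbols for TdT single positive and open symbols for double negative cells. The leukocyte list reaches 21890 in wild type double negative replicate 3, the library with the lowest sums of contractile (268.5) and mural (106.6) members.

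The comparison of TdT single positive with double negative cells asks which of the CD45- sorts carried the contractile and mural transcripts. Both sorts carried all 10 genes, and the TdT single positive cells had the higher fitted level for all 10, without any gene passing the test. Over both labels 0 of 10 genes were called with edgeR, where 1.89% of all genes were, although 6 of 10 had an unadjusted p under 0.05, as did 19% of all genes. Cnn1 had the smallest p (log2 fold change 1.34 ± 0.48 SE, adjusted p = 0.136), followed by Rgs5 (1.13 ± 0.45, adjusted p = 0.181). The values were 0.93 ± 0.41 for Acta2 (adjusted p = 0.231), 1.285 ± 0.705 for Cspg4 (adjusted p = 0.330) and 0.64 ± 0.48 for Mcam (adjusted p = 0.490). Limma's voomWithQualityWeights and DESeq2 also called 0 of 10. Same-numbered libraries of these populations deviated together in part (r from 0.11 to 0.59). In all 4 same-numbered pairs the TdT single positive library was the higher for 9 of the 10 genes, where this held for 20.8% of all genes, and Mcam was higher in 3 of 4. A fit with that number as a block called 0 of 10 as well, with 187 in place of 284 of all genes. In this comparison 1 of 10 regulators of the contractile genes tested passed, at a higher level in TdT single positive cells. Among other lists 0 of 11 myofibroblast, 0 of 10 fibroblast, 0 of 12 further mural, 0 of 7 epithelial, 0 of 12 endothelial and 0 of 13 leukocyte genes passed, and no test compared the lists. Their median log2 fold changes in wild type and Cdh2-cKO libraries were 0.95 and 0.31 for regulators, 1.44 and 0.55 for myofibroblast, 1.47 and 0.23 for fibroblast, 1.42 and 0.25 for further mural, -1.48 and 0.16 for epithelial, -0.14 and -1.47 for endothelial and -1.53 and 3.71 for leukocyte genes.

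Within each label no gene of the 10 was called, although the fitted values differed between the labels. In wild type libraries 0 of 10 genes were called, where 0.160% of all genes were, and 3 had an unadjusted p under 0.05 beside 16.7% of all genes. Rgs5 had 1.97 ± 0.64 there (adjusted p = 0.175), and among the fits with 1 library left out it passed in the fit without double negative replicate 1 (2.75, adjusted p = 0.0383). In libraries labelled Cdh2-cKO 0 of 10 were called, where 0.0332% of all genes were, and 0 had an unadjusted p under 0.05 beside 12.9% of all genes. There Rgs5 had 0.30 ± 0.64 (adjusted p = 0.910) and Acta2 had 0.64 ± 0.58 (adjusted p = 0.733), while Mcam was not higher in TdT single positive cells (-0.026 ± 0.693, adjusted p = 0.996). With the block 0 of 10 were called under each label, with 4 in place of 24 and 3 in place of 5 of all genes. Neither voom nor DESeq2 called a gene of the 10 in either comparison. The difference between the labels in this contrast was not called for any of the 10 genes (0.00665% of all genes were, and 0 of 10 had an unadjusted p under 0.05 beside 10.1% of all genes), and for Rgs5 it was -1.67 ± 0.92 (adjusted p = 0.619). Voom and DESeq2 called 0 of 10 for it as well.

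Among CD45+ cells, TdT did not separate the genes. Double positive against CD45 single positive libraries gave 0 of 10 calls, where 0.00665% of all genes were called, and 0 of 10 had an unadjusted p under 0.05 beside 4.06% of all genes. The fitted log2 fold changes of the 10 genes had a median of -0.08, against -0.06 over all genes. Voom and DESeq2 gave 0 of 10 too.

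Libraries labelled Cdh2-cKO were compared with those labelled wild type within each population, and the deletion itself is not checked by these counts. In TdT single positive cells, where Osx-cre had been active, 6 of the 10 genes (Rgs5, Kcnj8, Mcam, Myh11, Myl9 and Des) were lower in both libraries labelled Cdh2-cKO than in both labelled wild type, where this held for 20.7% of all genes. The log2 fold change was -2.42 ± 0.74 for Rgs5 (adjusted p = 0.304) and -2.04 ± 0.94 for Kcnj8 (adjusted p = 0.468). Among the contractile genes the value was -1.285 ± 0.822 for Myh11 (adjusted p = 0.600), -0.60 ± 0.65 for Acta2 (adjusted p = 0.765), -0.41 ± 0.64 for Tagln (adjusted p = 0.847), -0.91 ± 0.64 for Myl9 (adjusted p = 0.638) and 0.22 ± 0.75 for Cnn1 (adjusted p = 0.942). It was -1.109 for Mcam (adjusted p = 0.630), -0.271 for Cspg4 (adjusted p = 0.953) and -1.356 for Des (adjusted p = 0.666), and no test compared contractile with mural genes. None of the 10 genes was called with edgeR, voom or DESeq2, where edgeR called 0.00665% of all genes, and 2 of the 10, Rgs5 and Kcnj8, had an unadjusted p under 0.05 beside 10.5% of all genes. In the other lists no gene passed in this comparison either, and the median log2 fold change was -1.89 for further mural, -1.25 for further contractile, -1.32 for fibroblast, -0.88 for myofibroblast and -1.27 for endothelial genes, and 1.67 for leukocyte, 1.67 for epithelial and 2.61 for skeletal muscle genes, against 0 over all genes. The part of cell composition in the lower levels was not tested. Without wild type double negative replicate 3 and Cdh2-cKO TdT single positive replicate 1, the CD45- libraries with the most leukocyte transcripts, Rgs5 had -2.15 (adjusted p = 0.569) and Kcnj8 had -1.74 (adjusted p = 0.880).

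In the other populations no gene of the 10 was called either. In double negative cells, double positive cells and CD45 single positive cells edgeR called 0% of all genes between the labels, and of the 10 genes 0, 1 and 0 had an unadjusted p under 0.05, beside 9.59%, 3.42% and 9.83% of all genes. In double negative cells the log2 fold change was -0.75 ± 0.58 for Rgs5 (adjusted p = 0.898), -0.64 ± 0.74 for Kcnj8 (adjusted p = 0.976) and -0.01 ± 0.53 for Acta2 (adjusted p = 0.998). Of 13 leukocyte genes tested 0 passed there, with a median of -3.41 against -0.06 over all genes, and their part was not tested. The 1 gene in double positive cells was Des (-3.71 ± 1.25, adjusted p = 1), which ranged from -4.26 to -1.82 with 1 library left out and was nearest to 0 without wild type replicate 1. Of 9 skeletal muscle genes tested 0 passed in this comparison, with a median of -1.97 against 0.01 over all genes, and their part in the Des value was not tested. Voom and DESeq2 called 0 of the 10 genes in each of these populations.

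The difference of the CD45 contrast between the labels was also tested. It was not called for any of the 10 genes with edgeR (0% of all genes were called, and 1 of 10, Rgs5, had an unadjusted p under 0.05 beside 7.69% of all genes). For Rgs5 it was -2.60 ± 0.65 on the log2 scale (adjusted p = 0.512), and DESeq2 called it (-2.63, adjusted p = 0.0341), while voom did not. Over all alternatives its adjusted p ranged from 0.0341 to 0.822. The value was -1.65 ± 0.95 for Kcnj8 (adjusted p = 0.700; -3.09 to -1.39 with 1 library left out) and -0.91 ± 0.57 for Acta2 (adjusted p = 0.741).

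To describe mural beside contractile signal within each library, Rgs5 and Kcnj8 were set against Acta2 per gene length. Since Acta2 is made by myofibroblasts as well as mural cells, the ratio depends on the mix of these cells. The ratio of Rgs5 to Acta2 was 0.231 and 0.264 in wild type TdT single positive libraries and 0.161, 0.121 and 0.159 in wild type double negative libraries. It was 0.0911 and 0.0599 in Cdh2-cKO TdT single positive and 0.109, 0.0544 and 0.101 in Cdh2-cKO double negative libraries. All 5 CD45- libraries labelled wild type lay above all 5 labelled Cdh2-cKO. Same-numbered libraries may come from the same mice, so that the 5 libraries on each side may stand for fewer mice.

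The ratio of Kcnj8 to Acta2 divided the libraries in the same way. It was 0.0598 and 0.0521 in wild type TdT single positive and 0.0388, 0.0584 and 0.0462 in wild type double negative libraries. In those labelled Cdh2-cKO it was 0.0268 and 0.0184 in TdT single positive and 0.0325, 0.0185 and 0.0377 in double negative cells. The gap between the lowest wild type library (0.0388) and the highest Cdh2-cKO library (0.0377) was small.

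**Figure D4:**
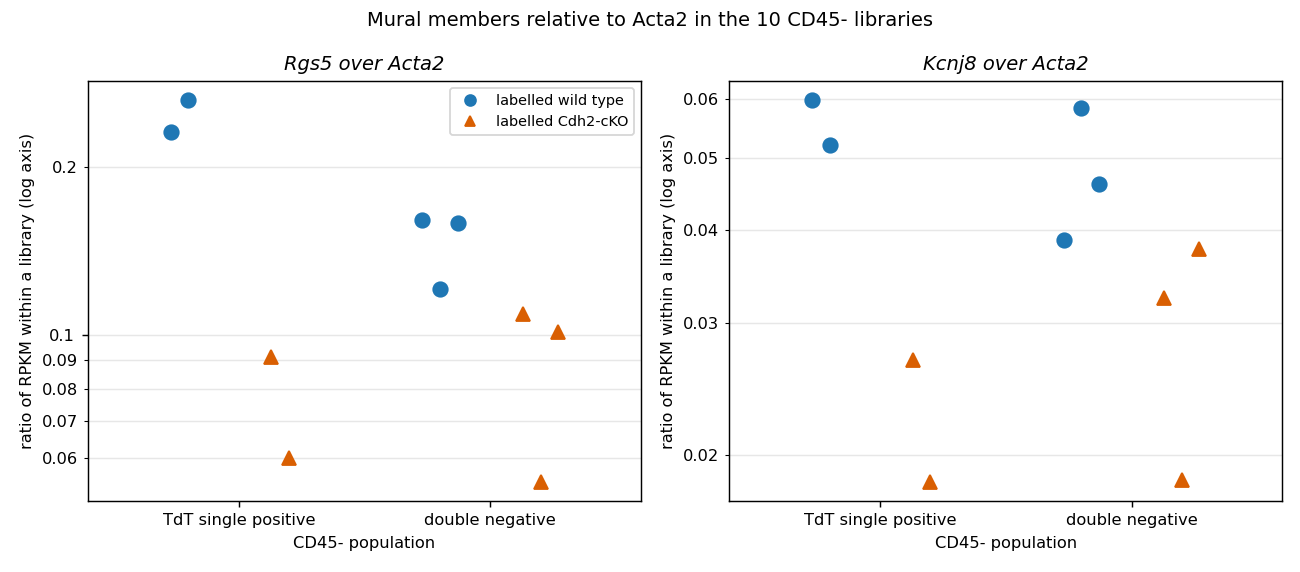
Ratio of Rgs5 (left) and Kcnj8 (right) to Acta2, each per gene length, in the 10 CD45- libraries on a log axis, by population, with circles for libraries labelled wild type and triangles for those labelled Cdh2-cKO. For Rgs5 the 5 wild type libraries lie between 0.121 and 0.264 and the 5 Cdh2-cKO libraries between 0.0544 and 0.109.

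On a log2 scale the ratio of Rgs5 to Acta2 had a mean of -2.01 ± 0.13 (SD, n = 2) in wild type and -3.76 ± 0.42 (n = 2) in Cdh2-cKO TdT single positive libraries. In double negative libraries it was -2.78 ± 0.23 (n = 3) and -3.57 ± 0.55 (n = 3). Few genes were divided in this way, but the share depends on Acta2 as denominator. Acta2 spanned 149 to 1833 normalized CPM in the wild type and 436 to 1474 in the Cdh2-cKO CD45- libraries. A gene that does not follow Acta2 can therefore hardly divide the labels. The share does not measure how unusual Rgs5 and Kcnj8 are. Relative to Acta2, 0.206% of the 15042 other genes tested (31 genes) stood higher in all 5 CD45- libraries labelled wild type than in all 5 labelled Cdh2-cKO, and 7 genes stood lower in this way. The median log2 ratio of the labels, wild type over Cdh2-cKO, was -0.46 over all genes relative to Acta2. Among the other 9 members the higher level under the wild type label held for 2, Rgs5 and Kcnj8. It also held for 2 of 12 further mural genes (Cox4i2, a lung and pericyte isoform of a cytochrome oxidase subunit, and Gja4, the gap junction protein connexin 37), for 1 of 13 further contractile genes (Mylk, the myosin light chain kinase) and for 0 of 11 myofibroblast and 0 of 10 fibroblast genes. Cox4i2 was not confined to CD45- cells, with 65 to 292 counts in the CD45+ libraries against 131 to 1514 in the CD45- libraries. Gja4 had at most 10 counts against 124 to 2538. The part of leukocytes in the Cox4i2 ratio was not tested. No test was made of these ratios, and Cdh2 did not follow the labels.

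The members differed in how closely they kept to Acta2 among the CD45- libraries. The level of Acta2 itself spanned 12.3-fold from the lowest to the highest of these libraries. The lowest was 149 normalized CPM in wild type double negative replicate 3, and the next lowest was 436 in Cdh2-cKO double negative replicate 1. The ratio to Acta2 spanned 1.67-fold for Myl9, 1.69-fold for Tagln, 2.15-fold for Mcam, 2.49-fold for Cnn1, 2.82-fold for Des, 3.25-fold for Kcnj8, 3.42-fold for Myh11, 4.14-fold for Cspg4 and 4.86-fold for Rgs5. Myl9 and Tagln thus ran with Acta2, while Rgs5 departed from it most among the members. The span of Cspg4 rests on wild type double negative replicate 3, where its ratio to Acta2 in normalized CPM was 0.1655. Under the Cdh2-cKO label the highest Cspg4 ratio was 0.1169. The place of Cspg4 in this order thus depends on the library with the most leukocyte transcripts, whose part was not tested. Over the 11 myofibroblast genes tested, the ratio spanned from 2.11-fold (Thbs2) to 15.2-fold (Itga11).

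The 5 genes most like Acta2 and the 5 most like Rgs5 over the 10 CD45- libraries are a description drawn from all genes tested. By Pearson's r of log2 CPM, a description of libraries that share their populations and their dilution by other cells, the nearest to Acta2 were Tmtc1 (r = 0.992, Spearman's rho = 0.988), Kcnmb1, the beta subunit of the calcium-activated potassium channel of smooth muscle (0.988, rho = 0.988), Tmem98 (0.986, rho = 0.988), Tnfrsf19 (0.981, rho = 0.952) and Sept4 (0.981, rho = 0.964). The nearest to Rgs5 were Parm1 (0.987, rho = 0.988), Zswim8 (0.985, rho = 0.988), Lgr5 (0.984, rho = 0.964), Mylk (0.982, rho = 0.976) and Abcc9 (0.981, rho = 1). Abcc9 encodes the sulfonylurea receptor that joins the Kcnj8 pore to form the potassium channel of pericytes. Correlations among the members did not divide contractile from mural genes. Between contractile genes r ran from 0.77 to 0.98 (10 pairs), between contractile genes and Rgs5, Kcnj8 or Mcam from 0.66 to 0.97 (15 pairs), among these 3 mural genes from 0.87 to 0.97 (3 pairs) and between Cspg4 and the other members from 0.68 to 0.85 (9 pairs). By r, Mcam was closer to Acta2 (0.95) than to Rgs5 (0.87), but rho was 0.9 with each. Myh11 was closer to Kcnj8 (0.93, rho = 0.94) than to Acta2 (0.89, rho = 0.81).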

How the data were processed

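Each of the 22 deposited tables holds whole-number counts for 41388 genes. Per the paper's methods and the submitters' processing notes, the authors aligned reads from SMARTer libraries with STAR 2.0.4b to GRCm38 and counted unique, unambiguous reads with featureCounts (Subread); whether the counting used strand is not stated. The deposited CPM and RPKM were computed by the authors from these counts and were recomputed with a relative deviation of at most 5.1e-14; only the counts were analysed. Replicates are called biological in the labels, and pairs of replicates differed by 49.7 to 409 as chi-square per degree of freedom. The labels do not say whether a replicate number marks the same mouse. Deviations from the group means of same-numbered TdT single positive and double negative libraries correlated in all 4 pairs (r from 0.11 to 0.59). With 2 TdT single positive libraries per label, their deviations mirror each other, so the 4 pairs are not separate agreements. Wild type TdT single positive replicate 2 correlated more with double negative replicate 3 (0.43) than with its own number (0.22). The fit with the number as a block is also given for the comparison of these populations. This was decided after both fits had been seen. Over all populations r was above 0.1 in 9 of 30 pairs.

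In R 4.3.3, a gene was kept when 2 or more libraries had it above 1 CPM, and rRNA genes were dropped (15043 genes stayed). With TMM factors, edgeR 4.0.16 fitted a quasi-likelihood model (glmQLFit, glmQLFTest) with 1 mean for each of 8 groups, which share the estimate of the spread, and p-values were adjusted by Benjamini-Hochberg over all genes tested. Genes were called at an adjusted p of at most 0.05. The fit was also run on simulated data, and nothing is concluded from that run here. Standard errors were derived from the quasi-likelihood test. Floors are 3 counts per library and cover counting error only. Alternatives were limma 3.58.1 (voomWithQualityWeights), DESeq2 1.42.0, RLE factors, no filter, an added log2 fold change of at least 2, a replicate block, each label fitted alone, and libraries left out. The genes named are the 10 members, Ptprc, Sp7 and Cdh2, up to 4 examples from each of the marker lists by mean CPM, and the 5 genes nearest to Acta2 and to Rgs5; others (Cd3e, Cd79a, Cox4i2, Ddx3y, Gja4, Itga11, Myocd, Pdpn, Srf) were named after their values were seen. The members and lists were chosen with earlier results of these data known.

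Exons of Tagln overlap Pcsk7 by 65 bases, those of Des overlap Gm15179 by 220 and those of Mcam overlap Gm10687 by 17, each on the opposite strand, so reads in these stretches are uncertain.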

Additional observations from a re-analysis of the deposited data

How the results depend on the processing

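Of 366 alternative counts of members called, 364 kept their value and 2 moved. For the difference of the CD45 contrast between the labels DESeq2 called 1 gene in place of 0, and for TdT single positive against double negative cells in wild type libraries leaving out 1 library at a time gave 0 to 1. Over all genes the tools differed more: edgeR, voom and DESeq2 called 24, 1 and 505 genes between TdT single positive and double negative cells in wild type, 5, 551 and 656 in Cdh2-cKO and 284, 710 and 986 over both; between the labels they called 1, 0 and 137 in TdT single positive and 0, 0 and 548 in double negative cells. The cause was not tested.

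Of 1546 single fold changes recomputed, 1530 kept their direction and their side of the threshold, 2 passed it anew and 14 changed sign, none of them called. With 1 library left out, the range crossed 0 for Rgs5 (-0.07 to 0.79) and Acta2 (-0.13 to 1.13) between TdT single positive and double negative cells labelled Cdh2-cKO. Between the labels it crossed 0 in TdT single positive cells for Tagln (-1.24 to 0.23) and Cnn1 (-0.84 to 0.82), and in double negative cells for Rgs5 (-1.25 to 0.03) and Acta2 (-0.47 to 0.57). Voom gave -0.03 for Cnn1. DESeq2 and RLE factors each gave 0.01 for Acta2. Of the alternatives chosen after seeing the data, Ddx3y as a covariate gave 0.08 for Acta2, and leaving out wild type double negative replicate 3 and Cdh2-cKO TdT single positive replicate 1 together gave 0.10 for Tagln. Other ranges with 1 library left out kept their sign. Between the labels in TdT single positive cells they were -1.36 to -0.1 for Acta2, -1.44 to -0.52 for Myl9 and -1.98 to -0.57 for Mcam. In double negative cells Kcnj8 ranged from -1.25 to -0.32. Between TdT single positive and double negative cells over both labels they were 0.55 to 1.22 for Acta2, 0.81 to 1.65 for Cnn1 and 0.2 to 0.96 for Mcam.

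With the replicate number as a block, 9 and 9 genes were called between CD45- and CD45+ cells and 0 in the other contrasts that could be fitted; between the labels no block could be fitted, because the numbers lie within a genotype. The block changed no other call of a member. Over all 30 same-numbered pairs r ranged from -0.29 to 0.59, and 12 of 22 libraries correlated best with their own number; Ddx3y followed the number in part. Groups of 2 or 3 libraries limit what could be detected between populations and labels.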
